A study of Mus musculus with 5 samples.

Results

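Delta cells are the somatostatin-secreting endocrine cells of the pancreatic islet. Here they are the cells that the authors' deposited annotation types as delta, 394 of the 4178 cells of both islet libraries (6645 cells in the whole series). Of these, 62 of 1334 cells came from islets heterozygous for a Gcgr knockout and 332 of 2844 from islets of the homozygous knockout. Gcgr encodes the glucagon receptor, and its loss in mice is known to raise circulating glucagon and amino acids and to expand alpha cells, the glucagon-producing cells. Both libraries are of mouse islets dissociated to single cells, captured with the 10x Chromium 3' V2 kit, without treatment and with animals on standard chow. The labels give no wild-type library and neither the kind of Gcgr allele, nor sex or age, nor how many animals a library holds. The 3 tumor libraries, also of homozygous knockouts, hold no cell typed as delta and are not used. The series title places the question in alpha cells. Delta cells are described here as their neighbours under the same genotype.

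Somatostatin acts locally: it binds receptors on alpha and beta cells and restrains the release of glucagon and insulin. Delta cells in turn are known to respond to glucose, to ghrelin through the receptor encoded by Ghsr, and to urocortin 3, a peptide co-released by beta cells. The homeobox factor Hhex is needed to maintain the delta cell state in mice, and Rbp4 encodes the retinol carrier of plasma, which delta cells make in quantity.

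Delta cells were 5.85% of the 1060 endocrine cells in the heterozygous library (exact Clopper-Pearson 95% interval 4.51 to 7.44%) and 13.4% of the 2470 endocrine cells in the homozygous library (12.1 to 14.9%). The endocrine cells are those typed alpha, beta, delta or PP, and no cell of the heterozygous library was typed PP. All intervals cover counting error only, and dissociation, capture and animal cannot be told apart from genotype. The heterozygous delta cells held 448579 UMIs (unique molecular identifiers, tags that count each captured mRNA molecule once), with a median of 6040 per cell and a range of 2146 to 22404. The homozygous delta cells held 3451839, with a median of 9062 and a range of 2168 to 34737. In the authors' cluster names the 62 heterozygous cells all carry 1.7 and 330 of the 332 homozygous cells carry 2.3. The leading digit runs with the library among these cells, so the names do not show whether the genotypes separate. Mitochondrial UMIs had medians of 0.600% and 0.585%, and no cell name occurred in both tables. With 1 library per genotype no test between genotypes was possible, so no p-value is given anywhere.

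A level is the sum of a gene's UMIs over all cells of a type, scaled to 1000000 UMIs of that type (CPM). Endothelial cells of the same library serve as the reference for free RNA, since they should lack islet hormones, although they were shallower (medians of 3579 and 2061 UMIs). The somatostatin gene Sst stood at 148799 CPM in heterozygous and 214160 CPM in homozygous delta cells, against 491 and 2164 CPM in endothelial cells. Sst UMIs were present in every delta cell, but also in 79.7% and 97.7% of endothelial cells, so the level and not the share separates the types. After thinning each cell to 5000 UMIs, which left 44 and 287 cells and left out 18 and 45 shallower ones, Rbp4 UMIs were also present in 100% of cells of each genotype. Its share in endothelial cells was 10.4% and 29.4%, in 67 and 17 cells, but in alpha cells it was 95.4% and 93.3%, at levels of 961 and 1498 CPM against 5214 and 4129 CPM in delta cells. Hhex was found in 68.2% of heterozygous (52.4 to 81.4%) and 57.8% of homozygous cells (51.9 to 63.6%), against 34.3% and 35.3% of endothelial cells, which are known to express Hhex themselves. Without thinning the Hhex shares in delta cells were 77.4% and 77.7%. In alpha and beta cells Hhex stood at no more than 3.74 CPM, against 281 and 179 CPM in delta cells. Ghsr was near the limit of detection: 3 of 62 and 16 of 332 cells held a UMI (4.84% and 4.82%), with 0 in endothelial cells, which allows up to 1.52% and 1.40% there. Because the authors typed the cells on their expression, these levels describe the delta cells and are no independent check of the label.

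Other cell types were looked for with fixed marker lists. The 7 endothelial markers summed to 44.6 and 26.1 CPM in delta cells against 18112 and 13055 CPM in endothelial cells. The 6 stellate markers summed to 26.8 and 16.5 CPM against 23598 and 20403 CPM in stellate cells. Macrophage markers (6) summed to 156 and 56.8 CPM in delta cells, above the 19.8 and 23.0 CPM in endothelial cells. C1qa among them, a complement gene, was called lower in homozygous delta cells, at 138 and 43.7 CPM, by the rule given below. It was called lower in alpha cells (74.5 and 19.5 CPM) and beta cells (54.8 and 18.9 CPM) as well. The part of macrophage RNA in the genotype results was not tested. Lymphocyte markers (3) summed to 0 and 0.290 CPM. The beta cell factor Mafa was at 0 in delta cells of each genotype. The 7 beta markers together summed to 126337 CPM in heterozygous and 8739 CPM in homozygous delta cells, nearly all of it Ins1 and Ins2, the insulin genes.

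Insulin transcripts were concentrated in a few heterozygous cells. Ins2 had a median of 37090 CPM per heterozygous delta cell, close to the endothelial median of 34748 CPM, but its pooled level was 93299 CPM and its highest cell reached 326058 CPM. In 8 of the 62 cells, Gcg, Ins1 and Ins2 together passed 3 times their endothelial share. These 8 cells were deep, with a median of 16766 UMIs against 5648 in the other 54, and gave 28.5% of all heterozygous delta UMIs. In the homozygous library 16 of 332 cells passed the same limit, with 6.59% of the UMIs. Scrublet, a doublet caller, marked 0 delta cells, and 8 and 1 cells in the whole libraries, and no cell was removed. Whether the 8 deep cells hold more than 1 cell each was therefore not settled, and the heterozygous values of Ins1, Ins2, Ero1lb, Slc30a8 and Mt2 rest partly on them. Genotype results that change without these 24 cells are given both ways below, a comparison chosen after the values were seen. Gcg, the glucagon gene, was at 7898 and 20355 CPM and Ttr, the transthyretin gene, at 1585 and 4762 CPM, each moving with the endothelial level (Gcg 4104 and 14343 CPM, Ttr 969 and 3616 CPM). The part of free RNA in these values was not tested.

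The 25 genes that stood highest over both alpha and beta cells describe the delta cell profile. They were ranked by the smaller of the fold differences in the 2 libraries, among 745 genes with 100 CPM or more in delta cells of each genotype. Because the cells were typed on their expression, the ranking is a description without a test. Of the 745 genes, 32 were at least 2-fold, 9 at least 5-fold and 7 at least 10-fold above both other types in both libraries. The 7 were Ly6h, Sst, Hhex, Gap43, Cd24a, Fam159b and Clu. Ly6h, a GPI-anchored protein of the Ly6 family known from brain, ranked first: 439 and 692 CPM in heterozygous and homozygous delta cells, against at most 11.2 CPM in alpha or beta cells and 3.53 CPM in endothelial cells. Gap43, a protein of growing axons, was at 207 and 158 CPM against at most 6.09 CPM in alpha and beta cells. Fam159b, a small membrane protein, was at 825 and 533 CPM against 28.4-fold and 14.4-fold lower levels in the nearer of the other types. Cd24a, a surface glycoprotein, was at 508 and 336 CPM in delta cells but at 1411 and 578 CPM in endothelial cells. Clu (clusterin, a secreted chaperone) was at 896 and 824 CPM in delta cells and 508 and 468 CPM in endothelial cells.

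Arg1, the urea cycle arginase, was at 600 CPM in heterozygous delta cells, 7.70-fold above alpha cells, and at 143 CPM in homozygous ones, 18.0-fold above alpha cells. Lower in the ranking came genes of granules and secretion: Chgb, chromogranin B, at 3467 and 2300 CPM, and Rab3b, a vesicle GTPase, at 160 and 112 CPM. Ache, acetylcholinesterase, stood at 112 and 126 CPM, Folr1, a folate receptor, at 196 and 222 CPM, and Epcam, an epithelial adhesion protein, at 401 and 418 CPM. App, the amyloid precursor protein, and the factor Meis2 exceeded alpha and beta cells by 2.43- to 3.20-fold and 2.27- to 2.80-fold but were lower than in endothelial cells of each library, as was the chromatin remodeller Smarca2 (140 and 100 CPM in delta cells, 163 and 150 CPM in endothelial cells).

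**Figure D1:**
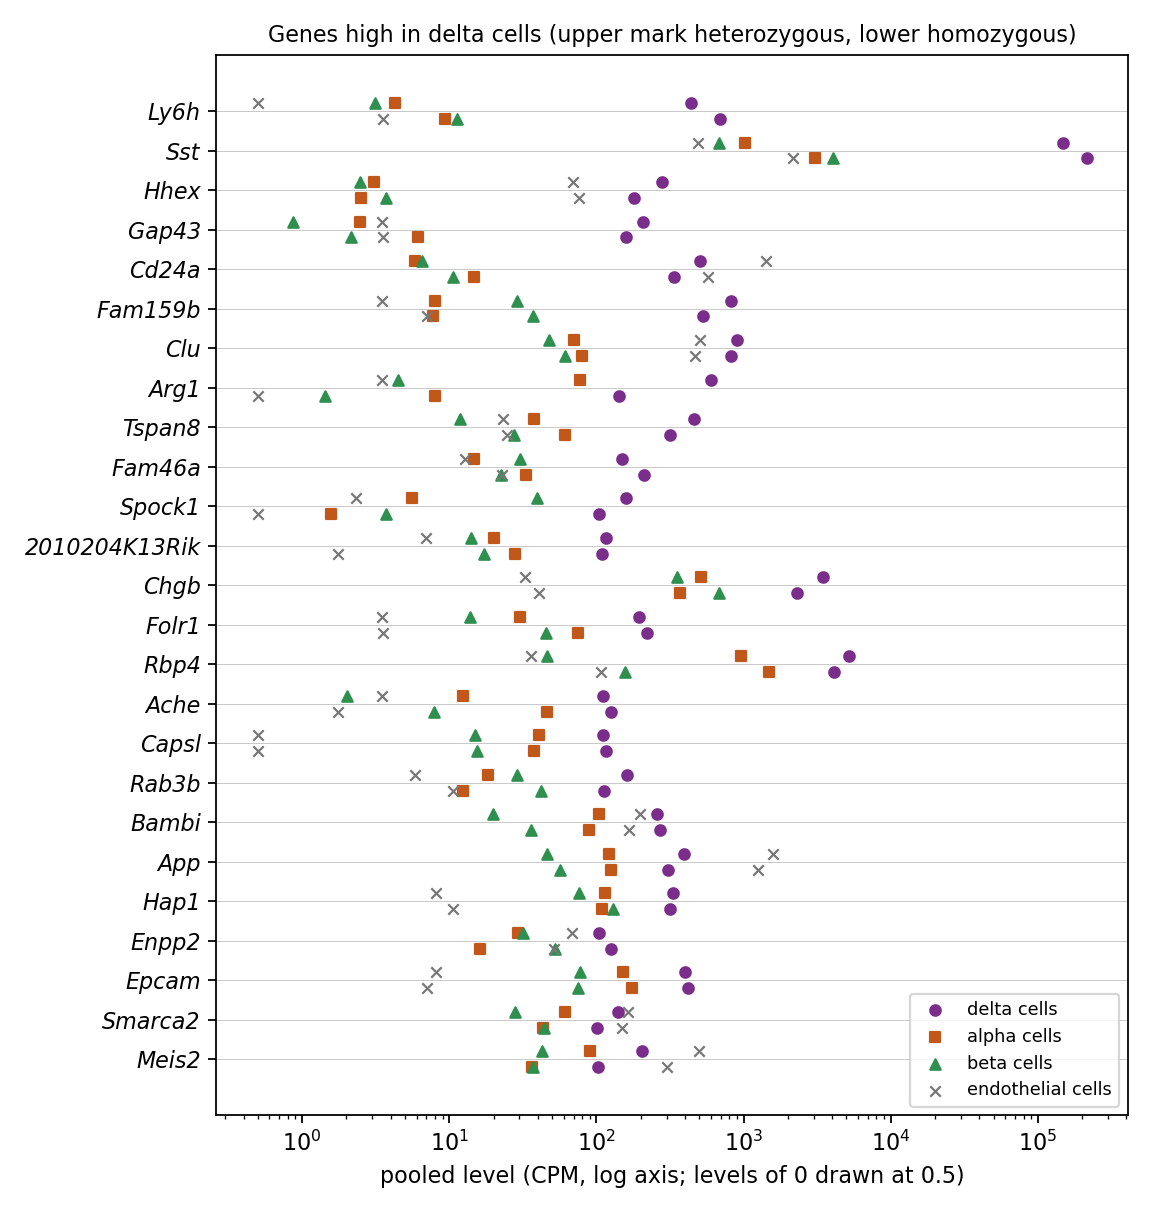
Pooled level in CPM (log axis, levels of 0 drawn at 0.5) of the 25 genes highest in delta cells over alpha and beta cells; for each gene the upper mark is the heterozygous and the lower mark the homozygous library. Delta cells lie to the right of alpha and beta cells in all 25 by construction, whereas endothelial cells lie further right for Cd24a, App, Smarca2 and Meis2.

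Promoter sequence was looked at for these genes because the cAMP response element, TGACGTCA, is the classical control element of somatostatin transcription. RefSeq promoter windows (build GRCm38.p6, 250 bases before the transcript start) were found for 17 of the 25 genes, and those of 2 held the element on either strand (it reads the same on both): Sst and Chgb. That count is of genes, and the 17 genes have 21 windows. Over all 32851 windows of the reference, from 27025 genes, 1.55% held it, a share by window and not by gene. The windows are shown 5′ to 3′ on the strand of the gene, with the element in capitals. It begins 48 bases before the start in Sst, at chr16:23890845-23891094 on the minus strand, and 72 bases before it in Chgb, at chr2:132781392-132781641 on the plus strand.
Sst: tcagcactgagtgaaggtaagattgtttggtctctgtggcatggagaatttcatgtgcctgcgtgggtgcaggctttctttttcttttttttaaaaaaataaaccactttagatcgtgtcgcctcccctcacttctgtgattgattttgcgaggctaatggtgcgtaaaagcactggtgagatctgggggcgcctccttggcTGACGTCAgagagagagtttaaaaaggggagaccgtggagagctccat
Chgb: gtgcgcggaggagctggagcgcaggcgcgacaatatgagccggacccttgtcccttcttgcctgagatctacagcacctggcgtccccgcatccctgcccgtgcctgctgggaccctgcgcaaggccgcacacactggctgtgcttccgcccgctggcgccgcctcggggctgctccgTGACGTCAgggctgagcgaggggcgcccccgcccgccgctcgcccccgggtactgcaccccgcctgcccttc
The windows of Ppy and Pyy do not hold these letters. A match describes the letters only.

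Delta cells of each genotype also carried transcripts of pancreatic polypeptide (Ppy) and peptide YY (Pyy), related peptides known to mark PP cells and subsets of other islet cells. Their genes lie close together on chromosome 11 (Ppy at 102099931 to 102101319 and Pyy at 102106676 to 102107832, GRCm38), and reads shared between related genes could raise either count. In heterozygous cells Ppy had a median of 31507 CPM with a range of 220 to 140966 CPM, and 53 of 62 cells (85.5%) exceeded the 95th percentile of endothelial cells, 1547 CPM. In homozygous cells the median was 99696 CPM with a range of 6562 to 432949 CPM, and 279 of 332 cells (84.0%) exceeded the endothelial 95th percentile of 18023 CPM. The ranges of the genotypes overlapped. Pyy was more even: its medians were 37891 and 84072 CPM, and every delta cell of each genotype exceeded the endothelial 95th percentile (1169 and 9292 CPM). Iapp, amylin, had medians of 35459 and 52553 CPM and was likewise above that percentile in every cell.

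**Figure D2:**
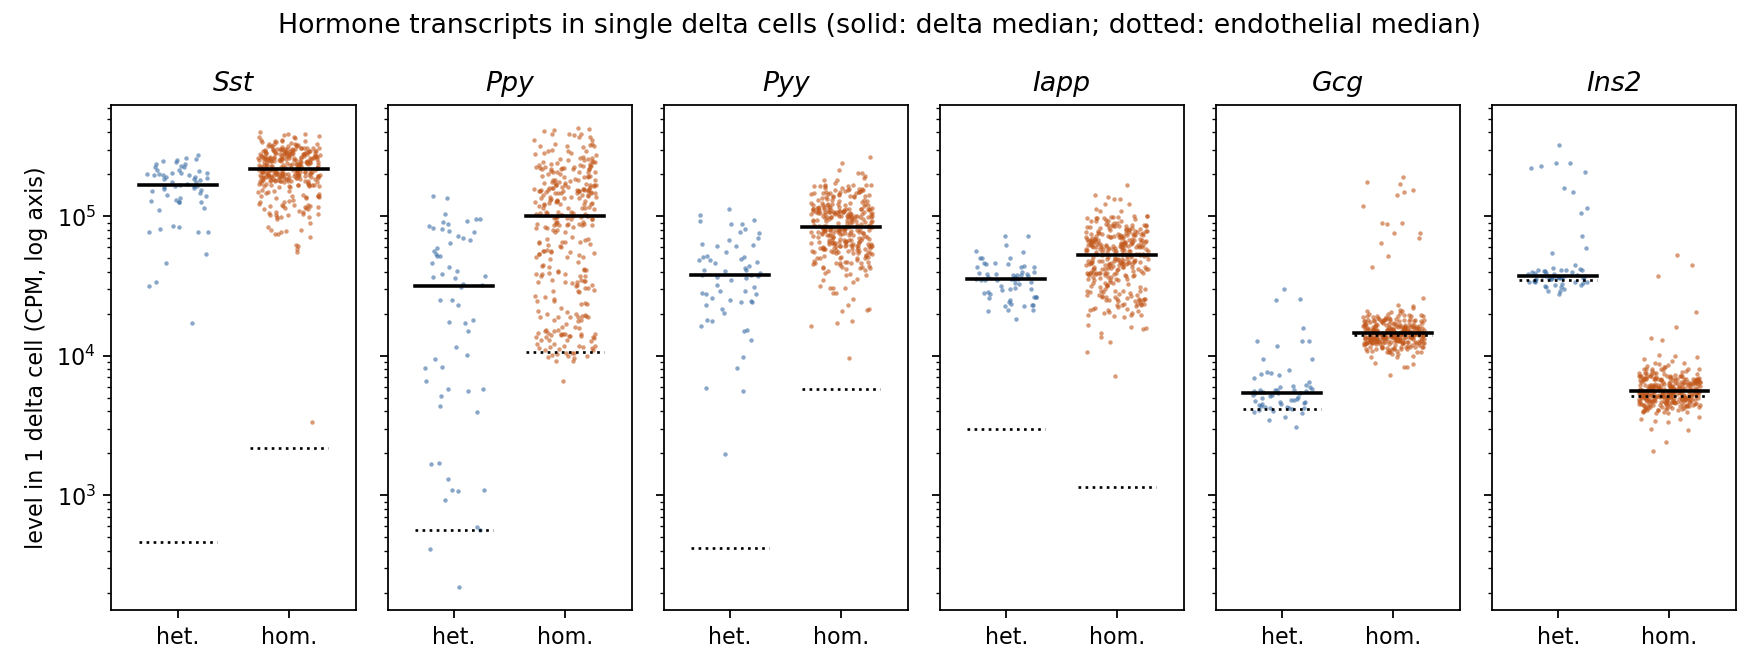
Level of 6 hormone transcripts in each delta cell (CPM, log axis; 62 heterozygous and 332 homozygous cells), with the delta median as a solid and the endothelial median of the same library as a dotted line. Ppy spreads from 220 to 432949 CPM, Pyy and Iapp lie above the endothelial median in every cell, and the delta medians of Gcg and Ins2 lie close to it.

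Across cells of 1 library, Spearman's rho between Ppy and Sst was -0.34 over 62 heterozygous and -0.66 over 332 homozygous cells. Levels are shares of a cell's total, so a high value of 1 abundant transcript lowers the others, and these correlations are given as descriptions. Ppy and Iapp had rho of -0.34 and -0.50, Sst and Iapp 0.23 and 0.42, and Ppy and Pyy 0.23 and -0.01. When the cells of each library were parted at their median Ppy level, a split made after the values were seen, few genes went with it. Of 1826 genes with 50 CPM or more in a part of each library, 1 was 1.5-fold or more higher in the Ppy-rich part in both libraries, Ppy itself, and 6 were lower by as much in both. Pdyn, the prodynorphin gene, was among the lower ones, at 29.0 against 82.8 CPM in heterozygous and 95.5 against 150.0 CPM in homozygous cells. Pooled Sst was at 150348 CPM in the Ppy-rich against 147470 CPM in the other part of the heterozygous cells (ratio 1.02). In the homozygous cells it was at 171936 against 264962 CPM (ratio 0.649). The heterozygous parts also differed in Ins2, at 63753 against 118642 CPM, beside 6955 against 5969 CPM in the homozygous parts. The part of insulin-rich cells in the heterozygous Sst ratio was not tested. Hhex was at 246 against 311 CPM and 143 against 222 CPM. In the Ppy-rich part of each library Hhex was still above its endothelial level (69.9 and 76.0 CPM).

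The comparison of genotypes used the ratio of pooled levels, homozygous over heterozygous, divided by the median ratio of the 2529 genes with 50 CPM or more in 1 genotype. That median was 0.746 (-0.42 on the log2 scale), beside a share of 39.8% of heterozygous and 53.7% of homozygous delta UMIs in 8 hormone transcripts (Sst, Gcg, Ins1, Ins2, Ppy, Pyy, Iapp, Ttr). A gene was called where the whole 95% counting interval of the divided ratio lay beyond 1.5-fold. Of the 2529 genes, 88 (3.48%) were called higher and 76 (3.01%) lower in homozygous delta cells. Among them, 48 higher and 40 lower genes were at 2 or more times the endothelial level in the genotype where they stood higher. Without dividing by the median the split was 22 higher and 262 lower, and with the 8 transcripts left out of the totals it was 125 and 111. Without the 24 cells rich in glucagon and insulin transcripts 83 were called higher, 73 of them among the 88, and 66 lower, 49 of them among the 76.

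**Figure D3:**
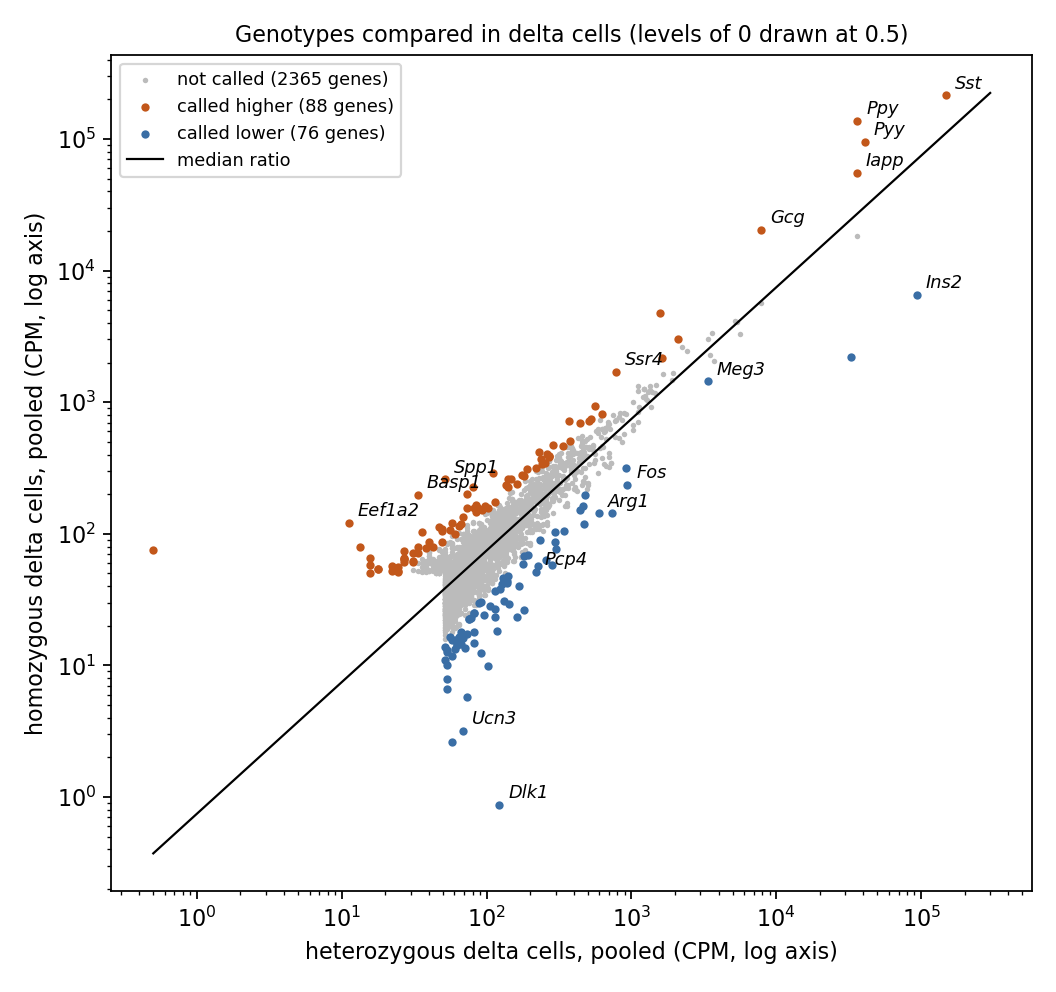
Pooled level of each gene tested in heterozygous (x) and homozygous (y) delta cells, in CPM on log axes with levels of 0 drawn at 0.5; the line is the median ratio of 0.746. The 88 genes called higher and 76 called lower lie on either side of it, with Ppy, Pyy and Iapp high at the top and Dlk1 far below the line.

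The targeted gene came first. Gcgr had 3 UMIs in 3 of 62 heterozygous delta cells (6.69 CPM, Poisson interval 1.38 to 19.5 CPM) and 0 in 332 homozygous cells, which allows up to 0.869 CPM. The undivided ratio against the limit of 3 counts was 0.130, with an upper interval bound of 0.314. Gcgr was thus barely detected in delta cells of the heterozygote and not detected in those of the homozygote.

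Of the 4 marker genes only Sst was called. Its ratio was 1.93 (1.91 to 1.95) after division, and 1.44 without it, short of the 1.5-fold bound. The heterozygous cells had a median of 168407 CPM (17093 to 272822) and the homozygous cells 217289 CPM (3362 to 403195), so the cells of the genotypes overlapped widely. Endothelial Sst was also higher in the homozygous library, at 2164 against 491 CPM. Rbp4 had a ratio of 1.06 (1.02 to 1.11), from 5214 to 4129 CPM, Hhex one of 0.854 (0.704 to 1.04), from 281 to 179 CPM, and Ghsr one of 0.929 (0.266 to 4.98).

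The 8 hormone transcripts take a large part of a delta cell's UMIs, and all 8 were called. Gcg had a ratio of 3.455 and Ttr one of 4.03, beside endothelial ratios of 3.55 and 3.79. Ppy was at 36228 CPM in heterozygous and 137843 CPM in homozygous delta cells, a ratio of 5.10 (5.02 to 5.18), and Pyy at 40867 and 95566 CPM, a ratio of 3.13 (3.09 to 3.18). Both were higher in homozygous alpha cells too, by 5.49 and 4.94 on the same scale, and in homozygous endothelial cells, by 17.0 and 12.8. Endothelial Ppy was 631 and 10586 CPM, well below the delta level in each library. Iapp was 2.06 times higher (2.02 to 2.09), from 36098 to 55411 CPM, whereas its endothelial level was 3021 and 1152 CPM, in the other direction. Without the 24 cells the ratios were 4.70 for Ppy, 2.75 for Pyy and 2.18 for Iapp. Without cells rich in any of Gcg, Ins1, Ins2, Ppy and Pyy the calls of Ppy and Pyy were lost, with ratios of 1.29 and 1.31; that setting keeps 27 and 34 cells and selects on Ppy and Pyy themselves. Ins1 and Ins2 were lower by ratios of 0.0900 and 0.0935, and without the 24 cells 0.205 and 0.196, beside endothelial ratios of 0.158 and 0.159.

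Genes higher in homozygous delta cells and at 2 or more times the endothelial level included Eef1a2, a translation elongation factor of neurons and muscle. It had 5 UMIs in 4 of 62 heterozygous cells and 419 in 211 of 332 homozygous cells (11.2 and 121 CPM, ratio 14.6, 6.21 to 45.2). Basp1, a membrane protein of growing neurites, was at 33.4 and 197 CPM (ratio 7.91, 4.76 to 14.2). Spp1, the secreted phosphoprotein osteopontin, was at 51.3 and 260 CPM (ratio 6.79, 4.49 to 10.8). The Spp1 call was lost without cells rich in any of Gcg, Ins1, Ins2, Ppy and Pyy, whereas Eef1a2 and Basp1 kept theirs. All 3 were called higher in alpha cells as well, by 29.8, 10.8 and 15.4, with levels of 339, 179 and 647 CPM in homozygous alpha cells. Homozygous endothelial cells held 10.6, 8.83 and 28.3 CPM of them.

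Ssr4, a subunit of the translocon-associated complex of the endoplasmic reticulum, was at 787 and 1702 CPM (ratio 2.90, 2.60 to 3.24). Fkbp11, a prolyl isomerase of secretory cells, was at 80.2 and 226 CPM (ratio 3.77, 2.70 to 5.42), with UMIs in 23 of 62 and 258 of 332 cells. Of the 14 endoplasmic reticulum chaperones tested, 1 was called higher, beside 3.48% of all genes tested, and none lower. It was Manf, a stress-induced secreted factor, at 263 and 405 CPM (ratio 2.07, 1.71 to 2.51), a call lost without division by the median (1.54). The list had a median of 0.34 on the log2 scale, beside 0.00 for all genes tested, and -0.08 without division by the median. The endothelial median of the same genes was 0.01, and the alpha median was 0.39. Ssr4, Fkbp11 and Manf were called higher in alpha cells as well. The alpha ratios of Ssr4 and Fkbp11 were 2.40 and 2.34, and Manf was at 253 and 391 CPM there. In beta cells Fkbp11 was called lower, and Ssr4 and Manf were not called.

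The other genes of this rank had varied roles. Gc, the vitamin D-binding protein also typical of alpha cells, was at 112 and 291 CPM. Crem, a cAMP-responsive transcription factor, was at 46.8 and 112 CPM, and Ndufa1, a subunit of respiratory complex I, at 370 and 716 CPM. Pappa2, a protease of insulin-like growth factor binding proteins, was at 35.7 and 103 CPM, with 10 of 62 and 172 of 332 cells positive. Stk39, a kinase of ion cotransporters, was at 15.6 and 65.8 CPM, Wipi1, an autophagy protein, at 17.8 and 53.6 CPM, Inpp5f, a phosphoinositide phosphatase, at 26.8 and 74.4 CPM, Apoa2, an apolipoprotein, at 15.6 and 50.4 CPM, and Cela1, an elastase, at 73.6 and 156 CPM. Their ratios ran from 2.60 for Ndufa1 to 5.65 for Stk39. Apoa2 lost its call without the 24 cells, where its higher level, 47.8 CPM, missed the minimum of 50 CPM. Of 8 alternative settings, Apoa2 lost its call in 4, Wipi1 in 3, and Stk39 and Cela1 in 2 each. Gc, Crem, Ndufa1, Pappa2 and Inpp5f kept theirs in all. Wipi1 was below its endothelial level in the heterozygous library (34.9 CPM) and above it in the homozygous library (24.7 CPM).

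Of the called higher genes that did not reach 2 times the endothelial level, the 5 with the farthest interval bound are named. Ctrb1, a digestive protease of acinar cells, had 0 UMIs in heterozygous and 75.6 CPM in homozygous delta cells. Its ratio was 15.2 with 3 counts put in for the 0, with a lower interval bound of 12.2. Alpha cells held 0.308 and 71.4 CPM of Ctrb1 and beta cells 0.0576 and 86.0 CPM. Homozygous endothelial cells held more of it, 244 CPM, and the 6 acinar markers summed to 73.6 and 278 CPM in delta cells and 4.66 and 412 CPM in endothelial cells. In heterozygous delta cells that sum was Cela1 alone, with Prss2, Ctrb1, Cpa1, Cel and Pnlip at 0. In homozygous delta cells Cela1 held 156 CPM of it. Cela1 stood at 1.54 and 11.05 CPM in alpha and 1.04 and 9.79 CPM in beta cells. The share of acinar RNA in the Ctrb1 value was not tested. Smap1, Cd59a, Erp44 and Ubr4 were the other 4 named, with ratios of 2.60 to 4.95.

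Lower in homozygous delta cells, Dlk1 had the ratio farthest from 1. Dlk1 encodes a transmembrane protein related to Notch ligands and is imprinted. Its 55 heterozygous UMIs came from 8 of 62 cells, 36.4% of them from 1 cell, and 3 of 332 homozygous cells held 1 UMI each (123 and 0.869 CPM). The counting ratio was 0.00950 (0.00190 to 0.0293), and 0.00793 without the 24 cells. Dlk1 was near 0 in the other types of each library, with at most 0.534 CPM in alpha and beta cells and 0 in endothelial cells. Meg3, a long noncoding RNA of the same imprinted locus, was at 3368 and 1439 CPM (ratio 0.573, 0.540 to 0.607), with UMIs in every delta cell. Nnat, the imprinted neuronatin gene, was at 167 and 40.3 CPM. Of the 10 imprinted genes tested, 3 were called lower (these) and 3 higher, beside 3.01% and 3.48% of all genes tested. The higher ones were Mest at 69.1 and 133 CPM, Peg3 at 163 and 239 CPM and Gnas at 2091 and 3031 CPM. Mest lost its call without the 24 cells (ratio 2.14, 1.47 to 3.23). Snrpn and Snurf, which share a transcript, had the same counts. Gnas lay within 2 times its endothelial level (1079 and 2833 CPM). The list's median was 0.07 on the log2 scale and turned to -0.35 without division.

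Arg1 was at 600 CPM in heterozygous and 143 CPM in homozygous delta cells (ratio 0.319, 0.275 to 0.372). After thinning, 88.6% of 44 heterozygous cells (75.4 to 96.2%) and 47.0% of 287 homozygous cells (41.2 to 53.0%) held a UMI, against 2.99% and 0% of endothelial cells. Alpha cells held 77.9 and 7.94 CPM. The Arg1 ratio was 0.302 without the 24 cells. Pcp4, a calmodulin regulator, was at 218 and 51.6 CPM, and Scgn, the calcium sensor secretagogin, at 256 and 62.9 CPM. Ppp1r1a, an inhibitor of protein phosphatase, was at 303 and 77.1 CPM, Mapk15, an atypical MAP kinase, at 118 and 18.2 CPM, and Insrr, a receptor related to the insulin receptor, at 91.4 and 12.5 CPM. These 5 kept their calls without the 24 cells, with ratios of 0.188 to 0.375. Insrr and Ppp1r1a lost theirs without cells rich in any of Gcg, Ins1, Ins2, Ppy and Pyy. Mapk15 and Ppp1r1a were also called lower in alpha cells (0.0558 and 0.208), and Ppp1r1a in beta cells (0.585). Pcp4 was called higher in beta cells, and Scgn and Insrr were called in neither type.

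Several lower genes are typical of beta cells, and their values moved with the insulin-rich cells. Ucn3 was at 69.1 and 3.19 CPM with all cells and at 43.6 and 3.10 CPM without the 24. Its ratio moved from 0.0618 to 0.100, and the call was lost there because neither level reached 50 CPM. Ero1lb, a thiol oxidase of the beta cell endoplasmic reticulum, went from 82.5 to 34.3 CPM in heterozygous cells, and its ratio from 0.240 to 0.586 (0.299 to 1.25). Slc30a8, the zinc transporter of insulin granules, went from 71.3 to 37.4 CPM and from a ratio of 0.256 to 0.350 (0.174 to 0.752). Ddc, which makes dopamine and serotonin from their precursors, went from 58.0 to 31.2 CPM and from a ratio of 0.0603 to 0.126 (0.0454 to 0.345), and lost its call by the minimum level, like Ucn3. G6pc2, an islet glucose-6-phosphatase, kept its call at 59.2 and 8.99 CPM (ratio 0.214, 0.116 to 0.404). Endothelial levels of these genes, each from 34 UMIs or fewer, were also lower in the homozygous library. They were 27.95 and 0 CPM for Ucn3, 39.6 and 12.4 CPM for G6pc2 and 11.6 and 0 CPM for Ddc. With the endothelial level subtracted Ucn3, Slc30a8 and Ddc lost their calls. Ucn3, Ero1lb and Ddc were called lower in beta cells too, and Ero1lb, Ddc and G6pc2 in alpha cells. The part of free RNA was not tested.

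**Figure D4:**
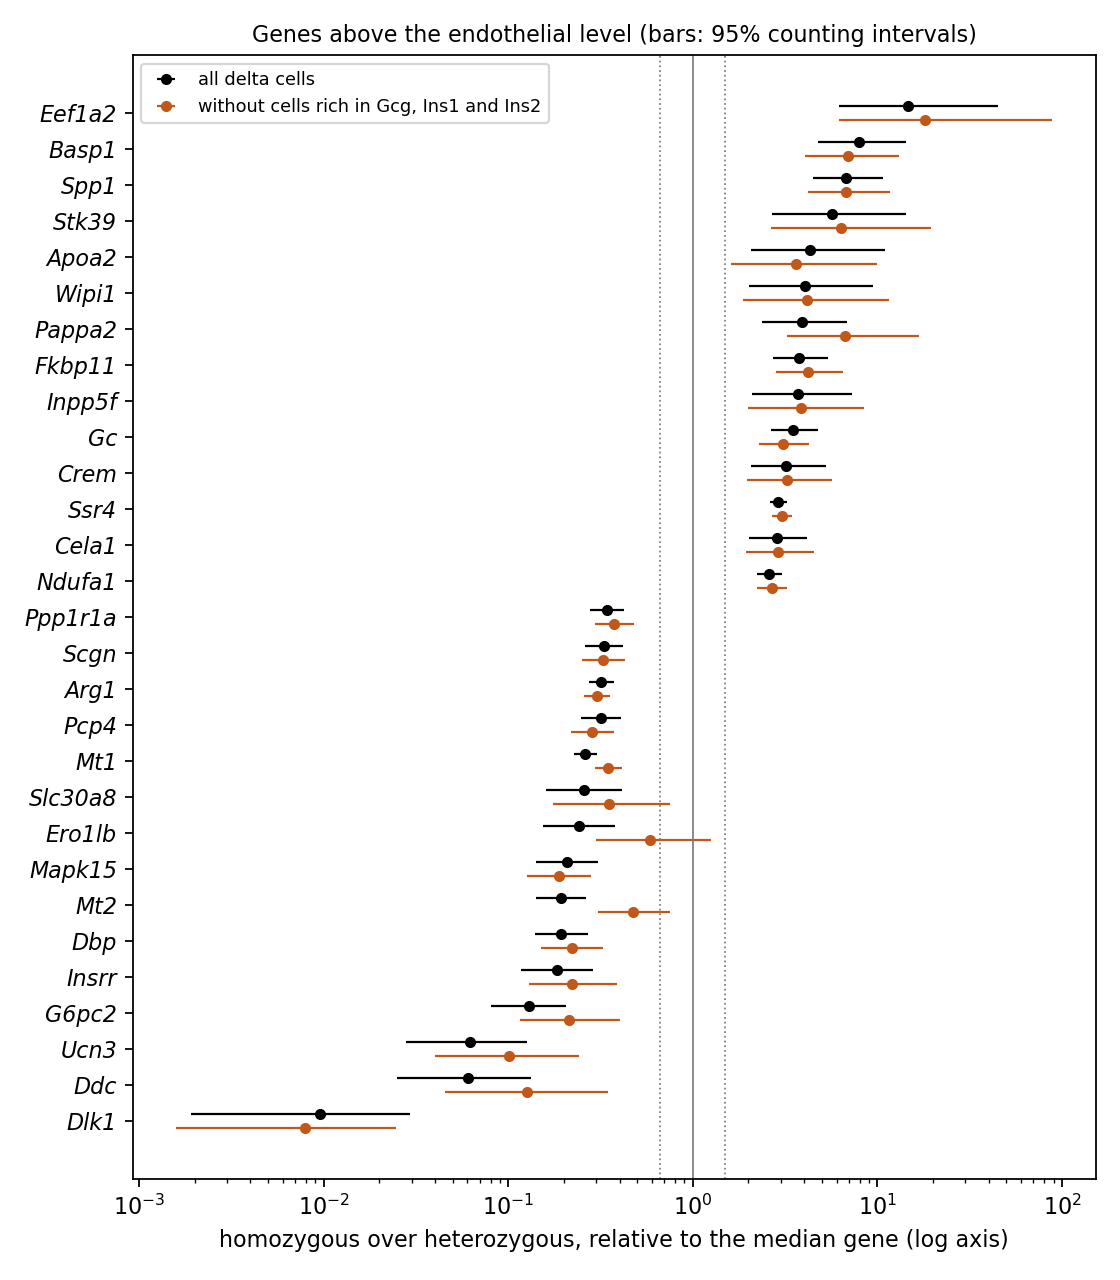
Ratio of homozygous over heterozygous level relative to the median gene (log axis) for the 14 higher and 15 lower genes named here that stood above the endothelial level; bars are 95% counting intervals and dotted lines mark 1.5-fold. Black points use all delta cells and orange points leave out the 24 cells rich in Gcg, Ins1 and Ins2; Ero1lb moves from 0.240 to 0.586 and Mt2 from 0.193 to 0.473, whereas the 14 higher genes stay above the dotted line in both.

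The metallothioneins, which bind zinc and copper, were lower: Mt1 at 733 and 143 CPM (ratio 0.261, 0.227 to 0.301) and Mt2 at 183 and 26.4 CPM (ratio 0.193). One heterozygous cell gave 35.4% of the Mt2 UMIs, and Mt2 lost its call without the 24 cells (0.473, 0.305 to 0.755), whereas Mt1 kept it (0.346). Of the 4 genes of metallothioneins and zinc transporters tested, 3 were called lower, beside 3.01% of all genes tested, the third being Slc30a8. Without the 24 cells 1 of 3 tested was called lower, Mt1. Mt1 and Mt2 were also called lower in alpha cells (ratios 0.135 and 0.108) but not in beta cells (0.929 and 1.43). Mt1 was called lower in endothelial cells (0.433), and both were called higher in stellate cells (2.92 and 8.24). Dbp, a clock-controlled transcription factor, was at 163 and 23.5 CPM, and Nr1d1, a repressor of the clock, at 53.5 and 7.82 CPM. Without the 24 cells Nr1d1 had a ratio of 0.237 but missed the minimum level, at 49.9 CPM. Levels in alpha and beta cells were also lower in the homozygous library, with Dbp at 27.4 and 11.1 CPM in alpha and 42.2 and 16.6 CPM in beta cells, and Nr1d1 at 8.93 and 3.97 CPM in alpha and 25.7 and 6.59 CPM in beta cells. Endothelial levels were higher there, at 30.3 and 67.1 CPM of Dbp and 61.7 and 88.3 CPM of Nr1d1. The hour at which islets were collected is not given in the labels, and its part was not tested.

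Immediate early genes, which respond within minutes to stimuli and to tissue dissociation, were the list with most lower calls. Of the 14 immediate early and heat shock genes tested, 9 were called lower and 1 higher, beside 3.01% and 3.48% of all genes tested. The list's median was -1.32 on the log2 scale against 0.00 for all genes tested. Fos was at 936 and 235 CPM (ratio 0.336, 0.298 to 0.379), Junb at 283 and 57.6 CPM and Egr1 at 299 and 86.9 CPM. Fosb, Ier2, Dusp1, Zfp36, Btg2 and the heat shock gene Hspa1a were the other 6, and Jund, at 239 and 368 CPM, was the higher one. Endothelial cells held more Fos than delta cells in each library (1387 and 1353 CPM), and the endothelial median of the 14 genes was -0.15, beside -2.62 in alpha cells. Without the 24 cells 6 of 13 were called lower and the median was -0.94. Of the 5 lower genes with the farthest interval bound that missed 2 times the endothelial level, Fos, Junb and Nr1d1 are given above. Klf10, a growth factor-induced repressor, was at 53.5 and 6.66 CPM (endothelial 205 and 201 CPM), and Prss53, a serine protease, at 73.6 and 5.79 CPM (endothelial 37.3 and 1.77 CPM). Both fell under the minimum level without the 24 cells, with ratios of 0.280 and 0.217. Handling during dissociation cannot be told apart from genotype.

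Of 12 islet transcription factors tested, none was called, 11 had ratios below 1 and the list's median was -0.56 on the log2 scale. Isl1, a LIM-homeobox factor of all islet cells, was at 453 and 234 CPM (ratio 0.694, 0.595 to 0.814), Pax6 at 359 and 172 CPM (0.642) and Etv1, an ETS factor, at 105 and 112 CPM (1.43). Of 14 genes for prohormone processing and granules, Slc30a8 alone was called. Chga, chromogranin A, had a ratio of 1.02 (5328 and 4065 CPM), Pcsk2, the prohormone convertase, one of 0.741 (3714 and 2054 CPM) and Scg5, its chaperone, one of 1.61 (1110 and 1335 CPM). None of 14 exocytosis genes was called (median 0.15). Among 6 ion channels, Kcnk3, an acid-sensitive potassium channel, was higher (24.5 and 55.9 CPM, ratio 3.06, 1.67 to 6.23). That call was lost under 4 of 8 alternatives: without division by the median, after thinning to 5000 UMIs, without cells rich in other hormones, and with the endothelial level subtracted (ratios 2.28 to 5.03). The subunits of the ATP-sensitive potassium channel, Abcc8 and Kcnj11, had ratios of 0.732 and 0.577.

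**Figure D5:**
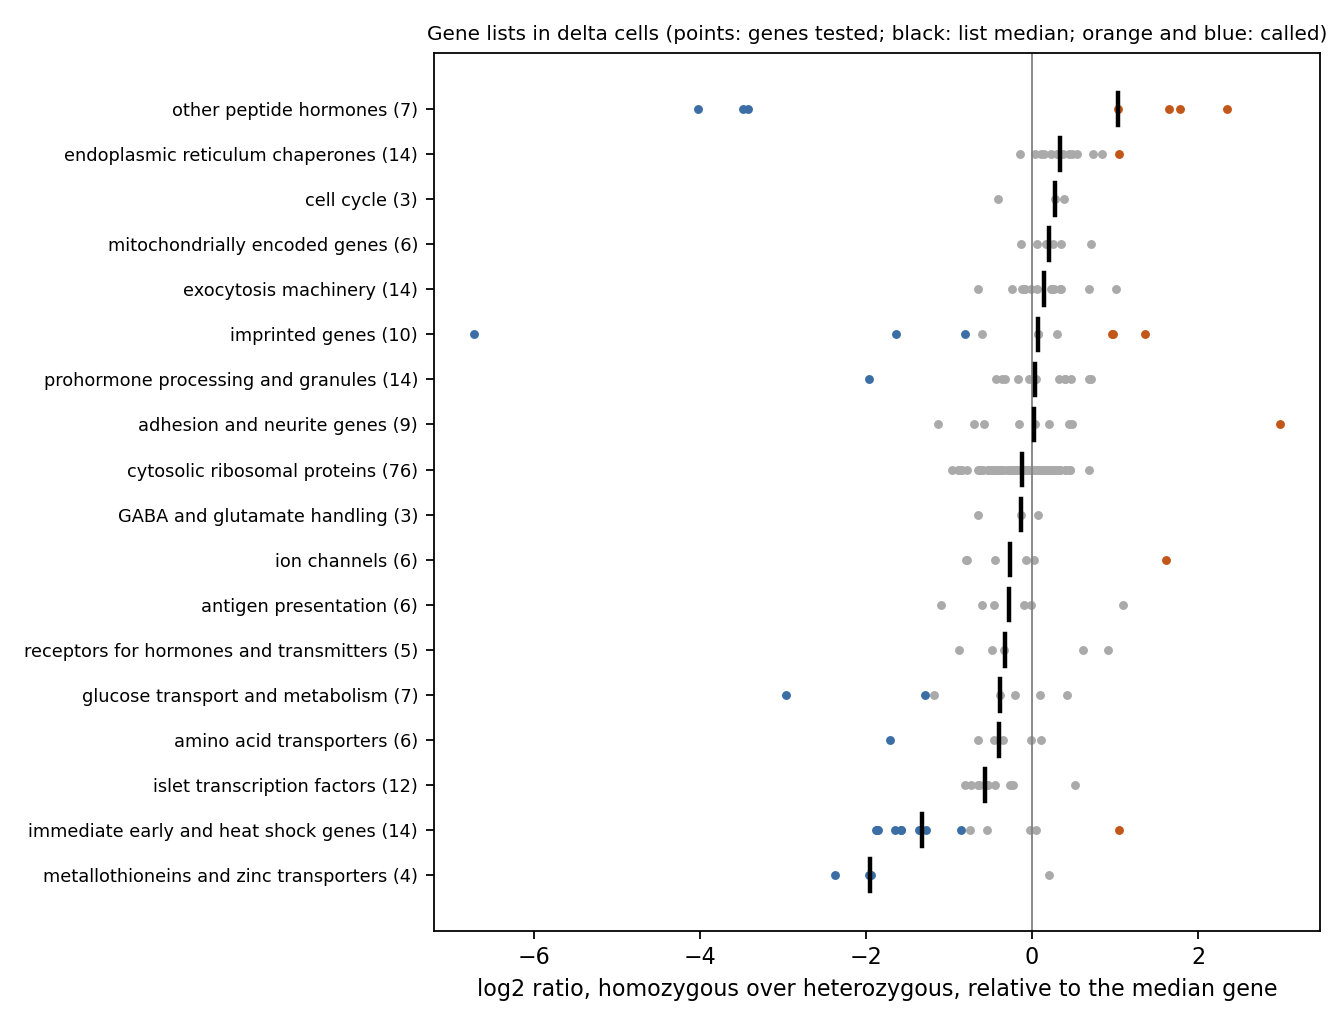
Log2 ratio, homozygous over heterozygous delta cells relative to the median gene, for the genes tested of each list (number in brackets, lists with 3 or more); black bars are list medians and coloured points are called genes. Immediate early genes and metallothioneins lie to the left with medians of -1.32 and -1.95, and peptide hormones fall on both sides.

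Receptors and amino acid handling gave few values above the minimum. Of 34 receptors for hormones and transmitters 5 were tested and none called. Ffar4, a long-chain fatty acid receptor, was at 154 and 175 CPM (ratio 1.53, 1.19 to 1.99), P2ry1, a purinergic receptor, at 42.4 and 59.7 CPM (1.89, 1.18 to 3.20) and Sstr3, a somatostatin receptor, at 71.3 and 42.3 CPM (0.795). Of 28 amino acid transporters 6 were tested, and Slc7a2, a transporter of arginine and lysine, was the 1 called: 62.4 and 14.2 CPM (ratio 0.305, 0.188 to 0.504), a call lost without the 24 cells (0.421, 0.225 to 0.834). Slc38a5, a glutamine transporter, stayed under the minimum at 26.8 and 46.1 CPM in delta cells, against 96.4 and 767 CPM in alpha cells. Of 24 genes of glucose transport and metabolism 7 were tested, and G6pc2, given above, was called lower. None of 76 cytosolic ribosomal protein genes was called (median -0.12). Cells with UMIs of 2 or more of 10 proliferation genes were 0 of 44 heterozygous and 2 of 287 homozygous delta cells at 5000 UMIs (0.697%, 0.0845 to 2.50%), and the count of 0 allows up to 6.82%.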

How the data were processed

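Both islet libraries were deposited as tables of cells by 36529 gene columns, with the authors' cell types. Per the file headers the values are a signal. They were read as each cell's UMIs divided by the authors' total count of that cell and multiplied by a constant. That constant, 9936, was computed here as a median over cells. The deposited cell totals are counts. The submitters' processing notes name CASAVA 1.8, bcl2fastq 2.17, GSNAP and the build GRCm38, with no role given. Each cell's values were divided by its smallest nonzero value, taken as 1 UMI, which gave whole numbers for 100.0% of values within 0.01. A cell's recovered sum was 1.0141 (heterozygous) and 1.0196 (homozygous) times the authors' total (medians), and at most 1.111 and 1.302 times. Of the gene columns, 85.0% matched the RefSeq annotation by Entrez identifier.

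UMIs were summed over the cells of a type and scaled to CPM. Ratios carry exact Clopper-Pearson intervals (95%), levels Poisson intervals, and a count of 0 the limit of 3 counts. Calls needed 50 CPM in 1 genotype. Named genes were the 4 markers, the 25 genes highest in delta cells, the 15 called each way with the interval bound farthest from 1 that reached 2 times the endothelial level, 5 each way that did not, up to 5 called per gene list, and Gcgr and hormones. Iapp, Ttr and genes given only as list members were added after their values were seen. A few genes that the rule names are not reported here. The members, the 22 gene lists and the 12 marker lists were chosen with earlier results of these data known. Analysis used Python 3.11.15, NumPy 2.4.6, SciPy 1.17.1, pandas 2.3.3 and Scrublet in Scanpy 1.11.5.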

Additional observations from a re-analysis of the deposited data

Results flagged for a closer look

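Of the genes named, 3 were called one way in delta cells and the opposite way in alpha or beta cells. The differences between cell types were not tested. Fkbp11 had a ratio (homozygous over heterozygous, relative to the median gene) of 3.77 in delta cells and 0.562 in beta cells. Pcp4 had a ratio of 0.316 in delta cells and 4.83 in beta cells, where its levels were 14.8 and 69.8 CPM. Iapp had a ratio of 2.06 in delta cells and 0.629 in alpha cells, where its levels were 4558 and 2466 CPM, beside 3021 and 1152 CPM in endothelial cells.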

How the results depend on the processing

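With 1 library per genotype, the spread between animals is unknown and the 62 heterozygous cells limit low genes. No paired analysis was possible because each genotype has 1 library. Genes called higher (88) numbered 22 without division by the median ratio, 141 with no minimum level and 24 with a 2-fold bound. Genes called lower (76) numbered 262, 226 and 36 under the same settings, 146 with a 20 CPM minimum and 39 without cells rich in any of Gcg, Ins1, Ins2, Ppy and Pyy, a setting that keeps 27 and 34 cells. These follow from the settings' own construction except the last, where the cause was not tested. The other alternatives stayed within 1.5 times. Of 60 named genes called, 26 kept the call under every alternative that gave a value. Of 4 reversals, Cela1 went to 0.223 and Ero1lb to 1.77 without those hormone-rich cells, and Erp44 to 0.674 and Gnas to 0.294 with the endothelial level subtracted; the cause was not tested. The Hhex share in homozygous cells was 77.7% without thinning and 47.0% at 3000 UMIs. The Ghsr share was 4.82% in homozygous cells without thinning (1.74% at 5000 UMIs) and 0% in heterozygous cells at 3000 UMIs. Of the 25 genes highest in delta cells, 10 were among the 25 with a 50 CPM minimum and 18 with endothelial and stellate cells added to the reference.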
